A study of Homo sapiens with 6 samples.

Results

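The immediate early genes outside the EGR and AP-1 families were represented here by 10 genes: the transcription factors SRF, MYC, KLF2, KLF4, KLF6 and KLF10, the nuclear proteins IER2 and IER5, the cytoskeleton-associated protein ARC and the RNA-binding protein ZFP36. All probe sets whose annotation names exactly 1 gene, that gene being among these, were taken, which gave 19 of the 49293 probe sets tested, for 10 of 18132 genes. The cells were SH-SY5Y, an established human neuroblastoma line of sympathetic origin. One group of 3 arrays came from cells exposed for 24 h to 3 µM endosulfan, a chlorinated cyclodiene pesticide acting on GABA-A receptors, and the other group of 3 arrays came from control cells, for which the sources used here name no vehicle. The replicates are labelled as biological, with no culture, passage or day named, so p-values measure the spread between these samples, which may in part be technical.

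Immediate early genes are transcribed within minutes of a stimulus, because the proteins that switch them on are already present in the resting cell. Growth factors and depolarisation act on many of them through the ERK kinases, which phosphorylate ETS-family ternary complex factors bound beside SRF. SRF itself binds the CArG box, the core of a DNA site called the serum response element. Most of their mRNAs decay quickly, in many cases through AU-rich elements that proteins such as ZFP36 bind. In neurons the same programme follows synaptic activity, and ARC is one of its best known products. The cells here were exposed for 24 h, so the first minutes of the exposure were not sampled and no course over time can be read.

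The values are log2 RMA levels, a summary of the probes of a probe set after background correction and quantile normalization, and a difference of 1 stands for a change by a factor of 2 in this scale. The 23 control probe sets named as background had a mean of 4.37 ± 0.05 in endosulfan and 4.32 ± 0.05 in control arrays (SD, n = 3 each). Both group means of 5 members lay below these: SRF 11746117_a_at, KLF4 11719634_a_at and KLF6 11760125_a_at, 11716094_a_at and 11760124_a_at. The neuroblast identity of the cells was checked by its markers: of 15 listed, 14 were measured and all 14 lay above the median level of the table, and PHOX2A, HAND2, GATA2 and DBH had means of 11.82, 13.18, 13.19 and 12.17 in endosulfan and 11.55, 13.19, 13.13 and 12.02 in control arrays. SLC18A2 was the lowest of the 14, with means of 5.03 in endosulfan and 5.00 in control arrays. The array medians averaged 4.90 and 4.92. At an unadjusted limma p below 0.05, 4 of the 14 were lower and 0 higher in endosulfan arrays, namely ISL1, ELAVL4, STMN2 and GATA3, and 0 passed after adjustment. Of all genes, 10.5% were lower and 6.64% higher by the same unadjusted mark. A level above the median of the table was not particular to neuroblast markers. It was also seen in 8 of 10 endothelial, 5 of 10 epithelial and 4 of 10 mesenchymal markers. So it was in 3 of 9 haematopoietic and 3 of 8 Schwann or glial markers. The median level was 11.12 for the neuroblast list, and 5.59, 4.52, 4.47, 4.18 and 4.59 for those other lists in turn. Pearson's r between arrays over all probe sets, which are not independent, ran from 0.964 to 0.995.

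The proximal promoters of SRF, IER5, IER2 and ZFP36 are printed first, because in the probe set of highest mean these genes had a shared array order, described further on, and because SRF is both a member and a regulator of the class. RefSeq windows of 300 bases on GRCh38.p14, from 250 before to 50 after the annotated start, were matched for 7 of the 10 genes. No window was available for MYC, ARC and KLF10, so ARC is not printed although it had the same array order. Each window runs 5′ to 3′ along the gene's strand, and capitals mark CArG boxes and ETS cores (CCGGAA on either strand).
SRF (chr6:43171019-43171318, + strand): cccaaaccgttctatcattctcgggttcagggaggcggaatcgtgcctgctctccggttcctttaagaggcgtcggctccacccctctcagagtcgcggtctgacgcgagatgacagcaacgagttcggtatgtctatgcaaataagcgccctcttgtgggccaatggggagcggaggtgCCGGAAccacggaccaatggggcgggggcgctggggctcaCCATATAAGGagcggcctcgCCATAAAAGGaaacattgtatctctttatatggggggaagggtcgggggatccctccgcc
IER5 (chr1:181088450-181088749, + strand): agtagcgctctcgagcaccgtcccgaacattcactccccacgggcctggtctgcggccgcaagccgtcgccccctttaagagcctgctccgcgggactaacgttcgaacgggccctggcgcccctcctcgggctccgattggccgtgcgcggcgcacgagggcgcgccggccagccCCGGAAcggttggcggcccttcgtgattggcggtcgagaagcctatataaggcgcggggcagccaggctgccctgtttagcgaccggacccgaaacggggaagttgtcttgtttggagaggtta
IER2 (chr19:13150161-13150460, + strand): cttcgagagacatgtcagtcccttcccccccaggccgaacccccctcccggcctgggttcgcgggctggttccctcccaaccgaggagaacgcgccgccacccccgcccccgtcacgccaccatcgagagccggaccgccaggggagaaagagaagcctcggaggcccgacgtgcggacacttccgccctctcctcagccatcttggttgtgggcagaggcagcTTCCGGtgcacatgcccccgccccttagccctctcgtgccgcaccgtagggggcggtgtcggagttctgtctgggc
ZFP36 (chr19:39406597-39406896, + strand): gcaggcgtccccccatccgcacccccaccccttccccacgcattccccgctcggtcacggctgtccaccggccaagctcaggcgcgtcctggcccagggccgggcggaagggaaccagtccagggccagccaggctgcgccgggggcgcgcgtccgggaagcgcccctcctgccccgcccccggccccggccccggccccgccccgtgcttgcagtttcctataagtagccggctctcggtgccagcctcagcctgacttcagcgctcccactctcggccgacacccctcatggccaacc

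The SRF window held 2 CArG boxes, CCATATAAGG beginning at position -30 and CCATAAAAGG beginning at -10 relative to the start, and 1 ETS core at -70. It was the 1 window of the 7 with a CArG box, a motif found in 1.29% of 27305 gene promoters of that length. ETS cores were present in 3 of the 7, at -70 in SRF, -74 in IER5 and -26 in IER2, against 17.5% of all promoters. The ZFP36 window had neither. Among the other motifs sought on both strands, the GC box GGGCGG, to which SP and KLF proteins bind, was in 6 of the 7 and 44.5% of all, and the KLF-binding CACCC box (CCACCC) in 3 of 7 and 33.5% of all. The EGR site GCGGGGGCG, which overlaps a GC box in SRF, KLF2 and KLF6, was in those 3 of 7 and 5.01% of all. The E-box CACGTG, the site of MYC and its partner MAX, was in 2 of 7, namely KLF4 and KLF6, and 7.41% of all. The cAMP response element TGACGTCA was in 0 of 7 and 1.97% of all. These are matches of letters and do not show that a factor was bound.

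None of the 19 probe sets passed the test. With limma and a threshold of 0.05 on the p adjusted over the whole table (Benjamini-Hochberg), 0 of 19 were called, where 4 of all 49293 were, or 0.00811%. The adjusted p of the members ran from 0.215 for MYC to 0.997 for 1 of the KLF6 probe sets. At an unadjusted p below 0.05, 4 members were higher in endosulfan arrays, 2 of them for IER5 and 1 each for ARC and SRF, and 1 was lower, the MYC probe set. The share of all probe sets that were so placed was 6.30% on the higher and 9.21% on the lower side. The groups did not overlap for 5 member probe sets on the higher side (ARC, both of SRF and 2 of KLF6) and for MYC on the lower, whereas 11.5% of all probe sets were separated on the higher and 9.24% on the lower side. Of the 5 on the higher side, 3 had both means below the background control probe sets (SRF 11746117_a_at and both of KLF6), which leaves 2. The share of all probe sets separated under that same limit was not computed. For KLF6 11760125_a_at the limit was close, with an endosulfan mean of 4.3729 beside 4.3734 for the background control probe sets. There were 12 members with a positive and 7 with a negative difference, with a median log2 fold change of 0.11, beside 0.05 over all probe sets. No member differed by as much as 1.5-fold. In such bulk samples fewer cells of a kind and less RNA per cell cannot be told apart.

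**Figure D1:**
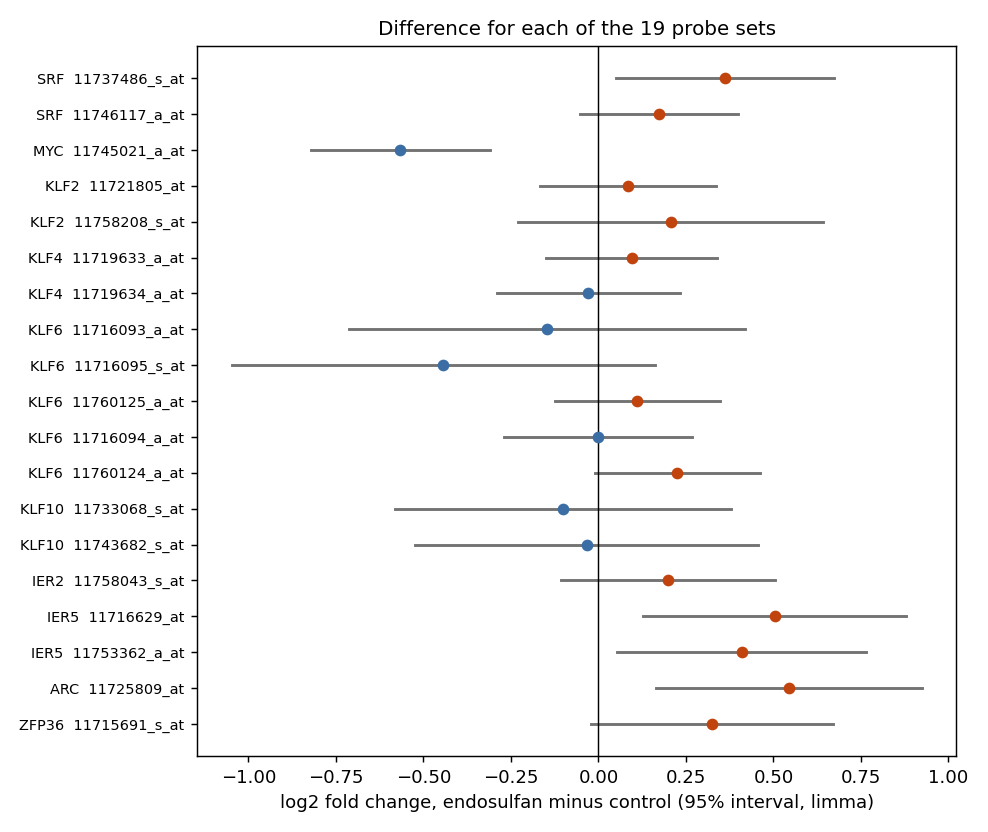
Log2 fold change, endosulfan minus control, on the horizontal axis for each of the 19 probe sets, with the 95% interval of the limma fit as a line (3 arrays a group). MYC lies lowest at -0.57 and ARC highest at 0.54, and 14 of the 19 intervals include 0.

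SRF, the MADS-box factor that binds the CArG box, had 2 probe sets. On 11737486_s_at it was at 7.95, 7.53 and 7.76 in endosulfan arrays 1, 2 and 3, against 7.28, 7.51 and 7.36 in control arrays 1, 2 and 3. The groups did not overlap, but endosulfan 2 cleared control 2 by 0.02. The log2 fold change was 0.36 ± 0.14 (SE, n = 3 each), with a 95% interval from 0.05 to 0.67 and a limma p, adjusted by Benjamini-Hochberg, of 0.280. The second probe set, 11746117_a_at, with both means below the background control probe sets, was at 4.31, 4.29 and 4.39 in endosulfan arrays, against 4.11, 4.12 and 4.23 in control arrays. Its groups were separated too, by 0.06, with a log2 fold change of 0.17 ± 0.10 (SE, n = 3 each, limma adjusted p = 0.419).

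MYC, the bHLH factor that dimerises with MAX and drives ribosome production and growth, had the smallest p of the 10 genes and was the 1 member whose interval lay wholly below 0. Its single probe set, 11745021_a_at, was at 10.47, 10.58 and 10.66 in endosulfan arrays, against 11.06, 11.26 and 11.09 in control arrays. The highest endosulfan array lay 0.39 below the lowest control array, a gap wider than the spread within either group. The mean was 10.57 ± 0.10 in endosulfan and 11.14 ± 0.11 in control arrays (log2, SD, n = 3 each). The log2 fold change was -0.57 ± 0.11 (SE), with a 95% interval from -0.82 to -0.31, or 1.48-fold higher in control. The limma p, adjusted by Benjamini-Hochberg, was 0.215 over all probe sets and 0.196 over all genes, so the difference did not pass. The value ranged from -0.50 to -0.61 when any 1 array was left out.

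The KLF proteins share zinc fingers that bind GC-rich and CACCC sites. KLF2, a factor of quiescent endothelium and lymphocytes, was at 6.76, 6.57 and 6.51 in endosulfan arrays and 6.58, 6.46 and 6.55 in control arrays on 11721805_at, and the groups overlapped. The difference was 0.08 ± 0.11 (log2, SE, n = 3 each) on that probe set and 0.21 ± 0.19 on 11758208_s_at, with 95% intervals from -0.17 to 0.34 and from -0.23 to 0.64. With 1 array left out they ranged from 0.0122 to 0.14 and from 0.0660 to 0.39. KLF4, an epithelial and pluripotency factor, was at 6.03, 5.93 and 6.12 in endosulfan arrays and 5.89, 6.02 and 5.88 in control arrays on 11719633_a_at. Its difference was 0.10 ± 0.11 there and -0.03 ± 0.11 on 11719634_a_at (log2, SE, n = 3 each), a probe set at means of 2.74 in endosulfan and 2.77 in control arrays, below the background control probe sets. Both KLF4 intervals lay within -0.29 and 0.34.

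KLF6, a widely expressed factor induced by injury, had 5 probe sets, and they did not move alike. On 11716093_a_at it was at 5.37, 5.25 and 5.18 in endosulfan arrays, against 5.99, 4.91 and 5.34 in control arrays. Controls 1 and 2 were the highest and the lowest of the 6 arrays, so the endosulfan arrays lay inside the control range. On 11716095_s_at it was at 4.55, 5.33 and 4.77 in endosulfan and 5.84, 5.08 and 5.06 in control arrays, with a log2 fold change of -0.44 ± 0.26 (SE, n = 3 each) and a 95% interval from -1.05 to 0.16. That difference was -0.19 without control 1, -0.28 without endosulfan 1 and -0.0235 without both. The other 3 probe sets, with means between 3.16 and 4.37, differed by 0.11, -0.00 and 0.23 on the log2 scale, with both means of each below the background control probe sets. Endosulfan and control did not overlap on 11760124_a_at, at 3.45, 3.38 and 3.32 in endosulfan against 3.11, 3.26 and 3.11 in control arrays, or on 11760125_a_at, where the gap was 0.01. The mean of the 5 probe sets differed by -0.05 ± 0.11 (log2, SE, n = 3 each).

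KLF10, a TGF-beta induced early factor, had 2 probe sets that gave the same picture. On 11733068_s_at it was at 8.24, 8.76 and 8.38 in endosulfan arrays, against 8.93, 8.54 and 8.21 in control arrays. Control 1 was the highest and control 3 the lowest of the 6 arrays on both probe sets. The log2 fold changes were -0.10 ± 0.21 and -0.03 ± 0.21 (SE, n = 3 each), with 95% intervals from -0.58 to 0.38 and from -0.52 to 0.46. The intervals of KLF10 thus include differences in either direction.

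IER2 and IER5 are small nuclear proteins of 1 family, and IER5 is known as a partner of the heat shock factor HSF1 and of the phosphatase PP2A. IER5 was at 8.95, 8.46 and 8.82 in endosulfan arrays, against 8.09, 8.47 and 8.15 in control arrays on 11716629_at. Endosulfan 1 and 3 stood above all controls, while endosulfan 2 was 0.01 below control 2. The log2 fold change was 0.50 ± 0.16 (SE, n = 3 each), with a 95% interval from 0.13 to 0.88 and a limma p, adjusted by Benjamini-Hochberg, of 0.240. The probe set 11753362_a_at had the same order, at 7.59, 7.31 and 7.50 in endosulfan against 6.82, 7.34 and 7.02 in control arrays, and a log2 fold change of 0.41 ± 0.15 (SE). IER2 was at 9.58, 9.21 and 9.35 in endosulfan arrays, against 9.04, 9.31 and 9.20 in control arrays, with groups that overlapped. Its log2 fold change was 0.20 ± 0.13 (SE, n = 3 each), with a 95% interval from -0.11 to 0.51, and it was 0.0992 without endosulfan 1.

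ARC binds the endocytic machinery at synapses and promotes removal of AMPA receptors. It was at 7.57, 7.28 and 7.51 in endosulfan arrays, against 6.60, 7.18 and 6.96 in control arrays. The groups were separated by 0.10, between endosulfan 2 and control 2, and the spread was wider among the controls. With means of 7.46 ± 0.15 in endosulfan and 6.91 ± 0.29 in control arrays (log2, SD, n = 3 each), ARC was 1.46-fold higher, the largest positive difference of the 19 probe sets. The log2 fold change was 0.54 ± 0.16 (SE), with a 95% interval from 0.17 to 0.92 and a limma p, adjusted by Benjamini-Hochberg, of 0.229. ZFP36, also called tristetraprolin, binds AU-rich elements and recruits the deadenylase complex. It was at 7.59, 7.10 and 7.36 in endosulfan arrays, against 6.92, 7.18 and 6.97 in control arrays, so that endosulfan 2 lay below control 2. The log2 fold change was 0.32 ± 0.15 (SE, n = 3 each), with a 95% interval from -0.02 to 0.67 and a limma adjusted p of 0.343. Without endosulfan 1 it was 0.20.

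**Figure D2:**
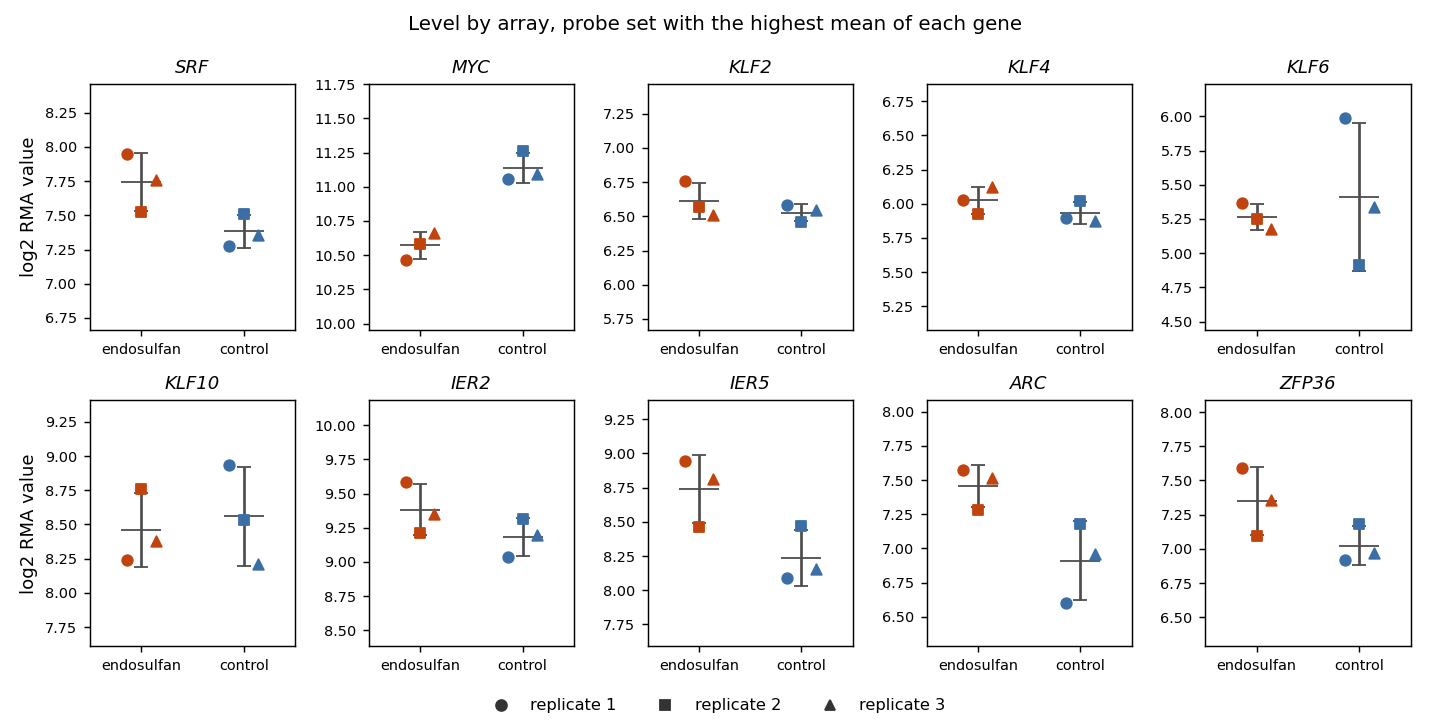
Log2 RMA value of each array for the probe set with the highest mean of each of the 10 genes, endosulfan left and control right, with the group mean and SD as bars; all panels span 1.8 log2 units. MYC shows a clear gap between the groups, with endosulfan at 10.47 to 10.66 and control at 11.06 to 11.26, whereas IER5, ZFP36 and IER2 overlap through replicate 2.

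Of the 12 members with a positive difference, 8 had endosulfan 1 as the highest and control 1 as the lowest of the 6 arrays: IER2, both of IER5, ARC, ZFP36, SRF 11737486_s_at, KLF2 11758208_s_at and KLF6 11760124_a_at. In KLF6 11760124_a_at, control 3 shared the lowest value of 3.11 with control 1. Over all 19 probe sets endosulfan 1 was highest in 9 and control 1 lowest in 10, with that tie counted. The poly-A control RNAs of bacterial sequence, added before labelling and read by 24 probe sets, moved in part with this order. Their mean was 7.81, 7.73 and 8.80 in endosulfan arrays, against 6.13, 7.73 and 5.84 in control arrays (two-sided exact permutation p = 0.2, where 3 arrays against 3 can give no less than 0.1). Endosulfan 2 and control 2 had the same spike-in level. Between that pair, picked after the data were seen and with 1 array a group, the difference was 0.02 and 0.17 for the 2 probe sets of SRF, -0.01 and -0.03 for the 2 probe sets of IER5, 0.10 for ARC, -0.09 for ZFP36, -0.10 for IER2 and -0.68 for MYC. When the fit also held the mean spike-in level of each array, the log2 fold change was 0.28 ± 0.23 for ARC (SE, n = 3 each). It was 0.23 ± 0.22 and 0.13 ± 0.21 for IER5, and 0.23 ± 0.21 and 0.18 ± 0.16 for SRF. For ZFP36 it was 0.16 ± 0.23 and for MYC -0.74 ± 0.16. None of these passed the test, with adjusted p of 1 in the fit with the covariate. The part of the spike-in level in the differences was not tested. The 18 hybridisation control probe sets also had a higher mean in endosulfan arrays, at 10.62, 10.56 and 10.91, against 9.98, 10.38 and 9.80 in control arrays (two-sided exact permutation p = 0.1, the smallest possible). RNA quality was read from GAPDH and actin. The 3′ probe set of GAPDH exceeded its 5′ one by 0.89, 0.82 and 0.82 in endosulfan arrays, against 0.81, 0.74 and 0.70 in control arrays (exact permutation p = 0.1). For actin the excess was 3.75, 3.56 and 3.71, against 3.66, 3.57 and 3.53, and the groups overlapped (exact permutation p = 0.3). The part of RNA quality in the differences was not tested either.

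**Figure D3:**
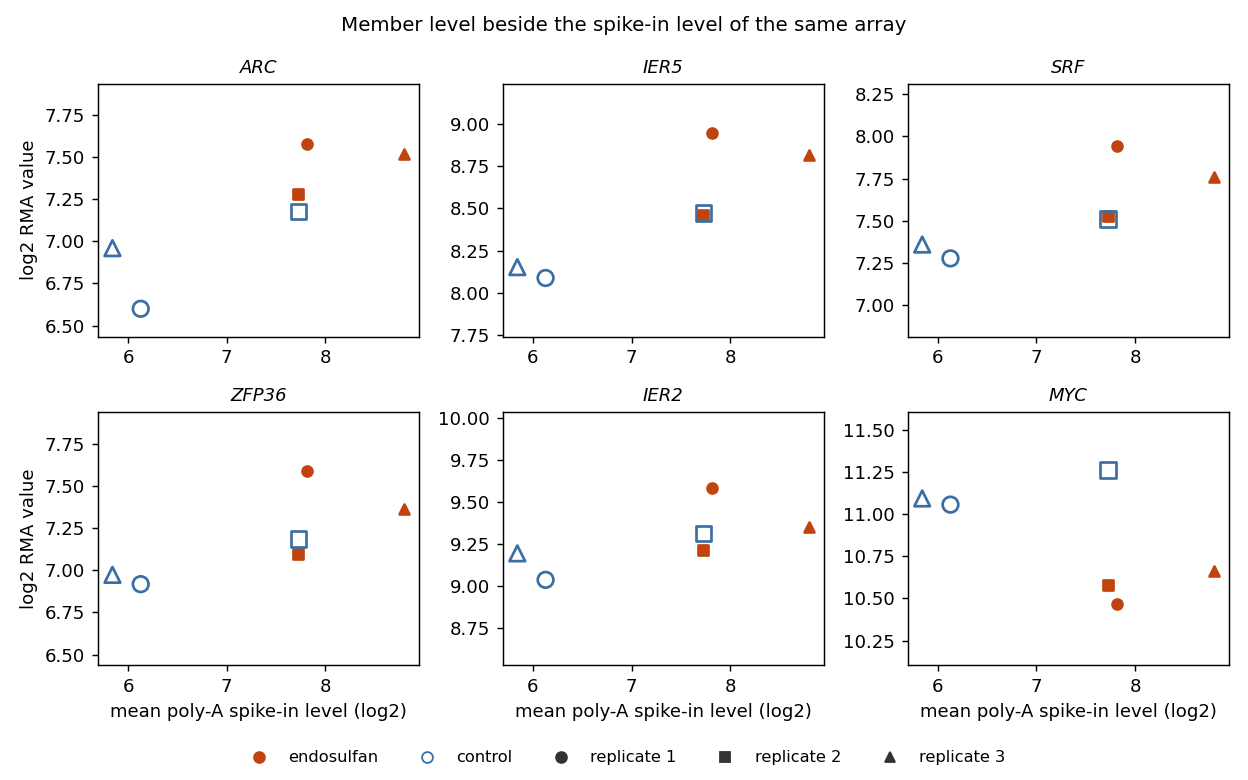
Log2 RMA value of 6 members (vertical axis, probe set with the highest mean) against the mean log2 level of the poly-A spike-ins on the same array (horizontal axis), filled for endosulfan and open for control. At the shared spike-in level of 7.73, endosulfan 2 and control 2 lie within about 0.10 of each other for ARC, IER5, SRF, ZFP36 and IER2 and 0.68 apart for MYC. That pair was picked after the data were seen, with 1 array a group. Endosulfan 1, at a nearby spike-in level of 7.81, is the highest array for ARC, IER5, SRF, ZFP36 and IER2. Endosulfan 3, at 8.80, is the highest for none of these.

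EGR1 and FOS held the probe sets that did pass. Of 6 probe sets of EGR1, 3 passed, with log2 fold changes from 0.05 to 1.74 over the 6, and of 4 probe sets of FOS, 1 passed, with log2 fold changes from 0.29 to 2.72 over the 4. The lowest of each gene overlapped between the groups. The leading probe sets had log2 fold changes of 1.74 ± 0.11 and 2.72 ± 0.19 (SE, n = 3 each), with a limma p, adjusted by Benjamini-Hochberg, of 0.00913 for both. The control mean of the leading FOS probe set was 4.03, below the 4.32 of the background control probe sets. The FOS probe set of highest mean was the one with the log2 fold change of 0.29. Between endosulfan 2 and control 2 the leading probe sets stood at 8.48 against 6.73 for EGR1 and at 6.52 against 4.14 for FOS. The difference between those genes and the 10 members was not itself tested.

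The genes around the members were described at gene level, with the probe set of highest mean for each gene. There, 1 of 18132 genes, 0.00552%, passed the adjusted threshold in limma, and none of the listed genes did. At an unadjusted p below 0.05, 6.64% of all genes were higher and 10.5% lower, and the median log2 fold change of all genes was 0.05. Of 34 further immediate early genes measured, 7 were higher and 4 lower by that mark, and their median log2 fold change was 0.13. SERTAD1, a cofactor of cell cycle transcription, was at 7.40, 6.83 and 7.21 in endosulfan arrays, against 5.73, 6.47 and 5.86 in control arrays. ID1, an inhibitor of bHLH factors, differed by 0.47 ± 0.11, whereas the pseudokinase TRIB1 differed by -1.19 ± 0.26 and the stress factor ATF3 by -0.49 ± 0.13 (log2, SE, n = 3 each). The limma adjusted p was 0.196 for the first 3 and 0.197 for ATF3.

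Of the 12 genes of the MYC and MAX network, at an unadjusted p below 0.05 there were 0 higher and 3 lower, with a median log2 fold change of -0.20 and with 5 genes on the higher and 7 on the lower side of 0. MYCN, the MYC paralog that drives many neuroblastomas, was at 8.65, 8.51 and 8.54 in endosulfan arrays, against 9.10, 9.08 and 8.94 in control arrays, groups that did not overlap (limma adjusted p = 0.196). MLXIP and MGA, which join the same network through MLX and MAX, differed by -0.44 ± 0.13 and -0.60 ± 0.20 (log2, SE, n = 3 each). Of 22 genes widely used as MYC targets, 6 were lower and 0 higher at that mark, with a median of -0.28 and with 6 on the higher and 16 on the lower side of 0. Among them the nucleolar proteins NOP58 and NOP56 differed by -1.01 ± 0.27 and -0.42 ± 0.14, and the transferrin receptor TFRC by -1.44 ± 0.46 (log2, SE, n = 3 each). The list mean of the targets lay between 9.15 and 9.63 in endosulfan and between 9.62 and 9.82 in control arrays, so the groups overlapped. TFRC was at 7.95 in endosulfan 2 against 7.88 in control 2, and NOP58 at 6.60 against 6.77.

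Lists tied to the other members had median log2 fold changes from 0.03 to 0.10, the highest for the SRF coactivators, beside 0.05 for all genes. Counts in these lists are at an unadjusted p below 0.05, where 6.64% of all genes were higher and 10.5% lower. Of 6 SRF coactivators 0 were higher and 1 lower, the ternary complex factor ELK3. It was at 4.78, 5.85 and 5.37 in endosulfan against 6.68, 6.32 and 6.48 in control arrays. Of 19 actin cytoskeleton genes known as SRF targets, 1 was higher and 3 lower at an unadjusted p below 0.05, with a median log2 fold change of 0.04. The focal adhesion protein vinculin, VCL, was on the lower side at -0.74 ± 0.24 and the calponin CNN2 on the higher at 0.57 (log2). Of the 12 other KLF genes 1 was higher, KLF16 at 0.51 ± 0.20, and 3 were lower, among them KLF7 at -1.03 ± 0.29 (log2, SE, n = 3 each), with a median of 0.04. Of 20 paralogs, deadenylase subunits and targets of ZFP36, 0 were higher and 2 lower, the CCR4-NOT subunits CNOT1 at -1.40 and CNOT7 at -0.81. Of 12 partners of ARC 1 was higher, the endophilin SH3GL3, and 1 lower, the AMPA receptor subunit GRIA2. Of 13 kinases and adaptors of the ERK cascade 1 was higher and 2 lower, among the lower RPS6KA2 at -0.91 ± 0.22. Of 7 genes of the ERK5 and MEF2 route to KLF2 and KLF4, 0 were higher and 1 lower, MEF2A at -0.58 ± 0.18.

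Markers of other cell types were counted because KLF2, KLF4 and KLF6 are prominent in endothelial, epithelial and mesenchymal cells. At an unadjusted p below 0.05, 0 of 10 endothelial, 0 of 10 epithelial and 0 of 8 Schwann or glial markers differed, 1 of 9 haematopoietic markers was higher, and of 10 mesenchymal markers 1 was higher and 3 lower. All 10 endothelial markers had a positive difference, with a median of 0.12, and their mean level lay between 5.58 and 5.86 in endosulfan and between 5.40 and 5.70 in control arrays. Their part in the KLF2 values was not tested.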

How the data were processed

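The authors deposited 1 table of log2 values, made with Affymetrix Expression Console and RMA per the submitters' processing notes; the sources used here give no version, option, filter or genome build. Quantile normalization in RMA removes a shift shared by most transcripts. The table held 49395 rows, of which 102 array controls were set aside. Annotation named 1 gene for 44988 of the other 49293 probe sets, several for 1832 and none for 2473, and 44961 gene IDs matched RefSeq. The agent in the labels set the groups, and titles the replicate numbers.

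Endosulfan was compared with control with limma 3.58.1 (lmFit, eBayes) in R 4.3.3 on the log2 values as deposited, two-sided, with Benjamini-Hochberg adjustment over all probe sets or, with the probe set of highest mean for each gene, over all genes. Every member probe set is described, and of each list up to 4 genes, by smallest p. Members, lists and alternatives were chosen with earlier results of these data known. Without scanner intensities, detection was not called per probe set, and levels were set beside the mean of the background control probe sets instead. The number of arrays limits the precision. Figures used matplotlib 3.10.9 in Python 3.11.15.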

Additional observations from a re-analysis of the deposited data

How the results depend on the processing

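The signs of 12 of the 19 member probe sets held under all alternatives, and no member was called except with array weights. Those weights, 5.43 for endosulfan 3 and 2.20 for control 3 against 0.36 to 0.85 for the other 4 arrays, gave 7101 calls in all, or 14.4% of probe sets, and 5 members: MYC at -0.49, ARC at 0.53, both of IER5 at 0.58 and 0.42, and SRF at 0.37. At an unadjusted p below 0.05 they gave 8 members higher and 2 lower, beside 17.4% of all probe sets higher and 15.3% lower. MYC kept an unadjusted p below 0.05 in all 15 alternatives.

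The count of calls over the table was 0 with the replicate block, without moderation and with the spike-in covariate, 1 without control 1 and endosulfan 1, and 0 to 7 with 1 array left out. Members higher at an unadjusted p below 0.05 numbered 2 with the block, 0 with the covariate, 0 without control 1 and endosulfan 1, and 1 to 5 with 1 array left out, the lowest without control 3, endosulfan 1 or endosulfan 3. The share of all probe sets on that side was 3.24% with the block and 0.893% with the covariate. It was 3.52% without control 1 and endosulfan 1, and 3.22% to 8.71% with 1 array left out. Members lower numbered 1 to 2 in these same fits, beside 1.14% to 11.5% of all probe sets. Separated members on the higher side numbered 2 among probe sets above the median level, where fewer were tested. Genes called numbered 0 after averaging the probe sets of each gene, with the block and without any 1 array. The labels do not say whether same-numbered arrays were paired. Deviations of same-numbered arrays from their group means correlated at -0.51, -0.40 and 0.05. With 3 arrays a group these values cannot show whether such arrays shared a culture or day.

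Signs turned for probe sets near 0. KLF6 11716094_a_at was at 0.0142 after centring, 0.0038 with the covariate and 0.0054 without control 1 and endosulfan 1, and between -0.0756 and 0.0563 with 1 array left out. KLF6 11716093_a_at was at 0.33 with the covariate, 0.0894 without control 1 and endosulfan 1, and 0.14 without control 1 alone, with -0.40 as the other end of that range. KLF4 was at -0.0549 with the covariate on 11719633_a_at, and on 11719634_a_at at 0.0166 without control 1 and endosulfan 1 and between -0.10 and 0.0481 with 1 array left out. KLF2 11758208_s_at was at -0.0565 without control 1 and endosulfan 1. The KLF10 probe sets were at 0.0292 and 0.0777 with array weights, 0.20 and 0.25 without control 1 and endosulfan 1, and from -0.28 to 0.0862 and -0.22 to 0.13 with 1 array left out. The cause was not tested.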
